A study of Mus musculus with 4 samples.

Results

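Astrocyte markers were followed in fetal mouse brain after maternal ethanol. The set consists of 9 genes chosen by name, out of 19938 genes with a probe set carrying a single gene symbol on the array. They were chosen with earlier results of these data known, so their shares beside those of all genes are descriptive. Each of the 9 was read by 1 probe set. Of these, 7 reached the expression filter, a mean over the arrays of 7.11 on the log2 scale (the median of all probe set means), as did 11013 genes in all, which are called kept genes below. The mean signals of Agt and S100b lay below it. Dams of the strain C57BL/6J were given ethanol or phosphate-buffered saline (PBS) by the intragastric route daily for 5 days, embryonic days 8 to 12. The ethanol dose was 2.9 g/kg/day of a 15% (v/v) solution. Fetal tissue was taken on embryonic day 18. The 4 groups were hippocampus after ethanol, hippocampus after PBS, forebrain after ethanol and forebrain after PBS, with 1 array each. How many embryos or litters an array stands for, and their sex, are not in the labels, nor is whether both tissues of a treatment came from the same embryos. If they did, the arrays of a treatment are not independent in the test of ethanol over both tissues used below, and its p-values may be too small. With 1 array a group, a difference between 2 arrays of a tissue has no replicate check, and litter and treatment cannot be told apart.

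Astrocytes arise from radial glia, the stem cells of the developing brain, after most neurons have been born, and their genes switch on gradually around birth. Mature astrocytes take up glutamate and potassium, are coupled by gap junctions, carry lipids to neurons and cover blood vessels with end-feet. At the fetal stage many astrocyte genes are also expressed by radial glia, and several of the 9 are active in other cells: Apoe in macrophages, Gja1 in meningeal cells and S100b in oligodendrocyte precursors. In these bulk tissues more cells of a type and more RNA per cell cannot be told apart.

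Most of the markers read higher after ethanol, most clearly Apoe, Aqp4, Aldh1l1 and Sparcl1 in hippocampus. Of the 7 kept markers, 6 read above PBS in hippocampus, where 30.7% of all kept genes did, and 6 did so in forebrain, where 46.1% of kept genes did. The median ethanol difference of the 7 was 0.35 on the log2 scale in hippocampus and 0.12 in forebrain, against -0.08 and -0.01 for all kept genes. None of the 7 was 1.5-fold higher in hippocampus, a size reached upward by 0.49% of kept genes. None passed the test of ethanol over both tissues. With the unfiltered genes the count was 8 of 9 in hippocampus and 7 of 9 in forebrain, where 47.0% and 48.5% of all genes lay above PBS. Of the 7 kept markers, 5 had all 4 readings at or above the filter value. The PBS hippocampus reading of Aqp4 and both PBS readings of Gfap lay under it. Gfap was thus kept through its ethanol arrays, so its place in these counts is tied to the filter.

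For 5 of the 7 kept markers, Aqp4, Apoe, Sparcl1, Aldh1l1 and Gfap, and for Agt below the filter, both ethanol arrays read above both PBS arrays. Gfap was kept through its ethanol arrays alone, so its place among the 5 is not independent of the filter. Among all kept genes 8.66% had this order and 28.9% the reverse, and among all genes without the filter 14.7% had it. The sequences around a RefSeq transcript start site of 4 of these 6 genes are shown because the genes share that order. They are RefSeq windows of the build GRCm38.p6, from 250 bases before the start site to 50 after it, read 5′ to 3′ on the gene's strand. Apoe lies at chr7:19699139-19699438 on the minus strand (of 3 windows listed for the gene, the one nearest to the start of the annotated gene, from which its start site is still 2122 bases away), Agt at chr8:124569657-124569956 on the minus strand, Aldh1l1 at chr6:90550543-90550842 on the plus strand and Gfap at chr11:102897151-102897450 on the minus strand. Capitals mark matches on either strand to letters bound by factors known from glial genes: TTCNNNGAA for STAT factors, TTGGC, a half-site of the nuclear factor I proteins, AACAAT for SOX factors and AGGTCA, a half-site of nuclear receptors such as those for retinoids and oxysterols.
Apoe: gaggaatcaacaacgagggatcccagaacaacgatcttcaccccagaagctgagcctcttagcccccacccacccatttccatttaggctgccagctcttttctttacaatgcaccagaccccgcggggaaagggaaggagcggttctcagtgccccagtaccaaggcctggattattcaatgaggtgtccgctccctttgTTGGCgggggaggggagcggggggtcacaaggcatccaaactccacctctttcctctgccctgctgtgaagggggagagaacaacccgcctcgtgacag
Agt: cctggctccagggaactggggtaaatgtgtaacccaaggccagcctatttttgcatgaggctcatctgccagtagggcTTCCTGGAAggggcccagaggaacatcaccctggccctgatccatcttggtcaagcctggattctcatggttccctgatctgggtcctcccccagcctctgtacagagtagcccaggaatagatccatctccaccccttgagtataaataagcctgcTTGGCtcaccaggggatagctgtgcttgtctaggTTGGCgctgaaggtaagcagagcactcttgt
Aldh1l1: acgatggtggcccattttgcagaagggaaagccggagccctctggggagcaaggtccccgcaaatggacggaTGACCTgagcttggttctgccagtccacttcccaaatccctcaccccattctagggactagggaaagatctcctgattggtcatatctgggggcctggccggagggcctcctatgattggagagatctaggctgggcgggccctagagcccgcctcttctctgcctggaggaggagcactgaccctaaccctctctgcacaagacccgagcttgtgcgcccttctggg
Gfap: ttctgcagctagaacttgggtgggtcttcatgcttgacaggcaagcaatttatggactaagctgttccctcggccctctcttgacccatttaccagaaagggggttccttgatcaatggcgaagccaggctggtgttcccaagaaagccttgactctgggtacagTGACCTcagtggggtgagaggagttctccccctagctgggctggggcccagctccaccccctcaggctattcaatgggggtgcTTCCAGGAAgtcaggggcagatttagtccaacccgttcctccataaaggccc
No marked letters were common to the 4 windows. Apoe held TTGGC beginning 49 bases before the start site of its window, and Agt held the same letters at -15 and +20. The STAT letters stood at -172 in Agt and across the start site, from -2, in Gfap. The nuclear receptor half-site was at -178 in Aldh1l1 and at -85 in Gfap. Over the 7 markers with a window in the table, 2 held the STAT letters, 4 the nuclear factor I half-site, 2 the nuclear receptor half-site and 0 the SOX letters. Of 32851 promoter windows of the same length, 8.3% held the STAT letters, 46.7% TTGGC, 16.3% AGGTCA and 10.7% AACAAT. A match is a stretch of letters and not evidence of binding.

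**Figure D1:**
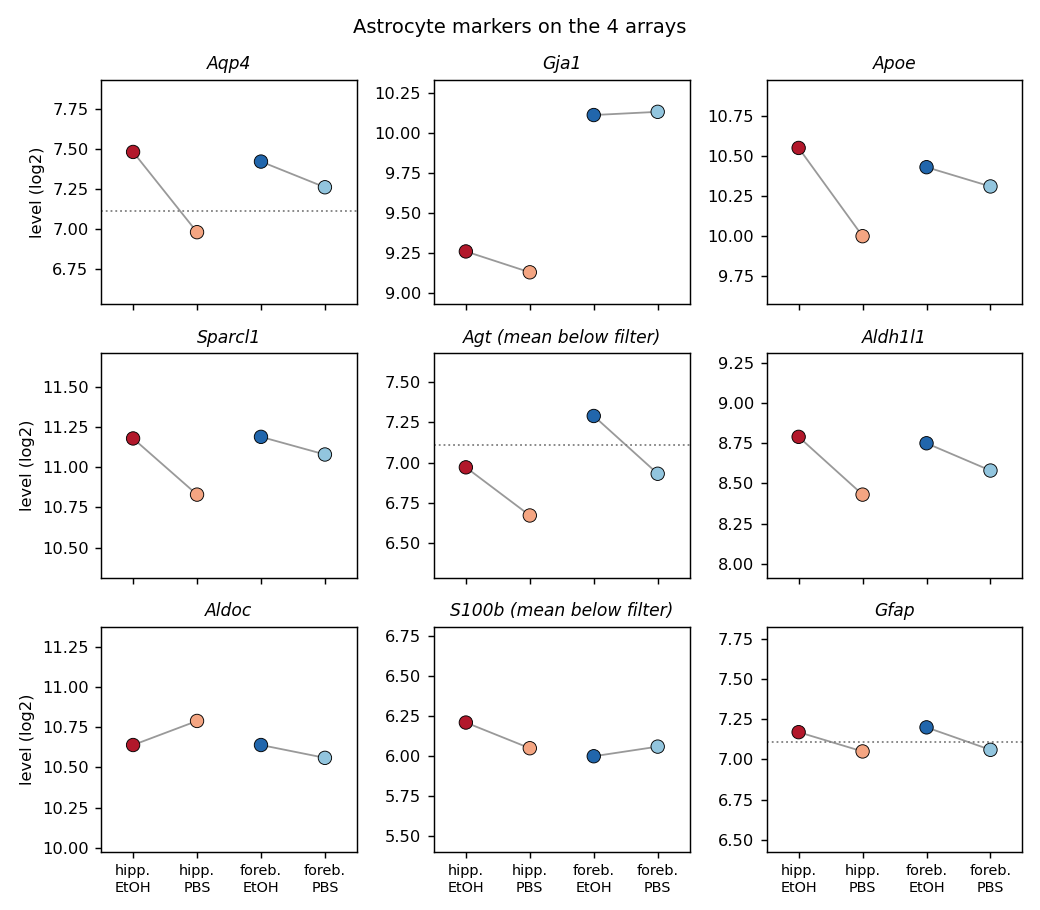
Level of each of the 9 markers on the 4 arrays, on the log2 scale (each panel spans the same range of 1.4, each point is 1 array, grey lines join ethanol and PBS of a tissue, and the dotted line is the filter value of 7.11). For Apoe, Aqp4, Sparcl1 and Aldh1l1 the hippocampus PBS array is the low point, and Gja1 is set apart by tissue.

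Among channel proteins, Aqp4 encodes the water channel of astrocyte end-feet. It read 7.48 in hippocampus after ethanol, against 6.98 after PBS, and 7.42 in forebrain after ethanol, against 7.26 after PBS. The PBS hippocampus array was the low one, under the filter value, and the other 3 arrays lay within 0.22 of each other. The difference was 0.50 in hippocampus, 1.42-fold and the 102nd highest of 11013, and 0.16 in forebrain. Over both tissues limma, a linear model fitted across all kept genes with tissue as a second term, gave 0.33 (SE 0.104, Benjamini-Hochberg adjusted p = 0.51).

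Gja1 encodes the main gap junction connexin of astrocytes. It read 9.26 in hippocampus after ethanol, against 9.13 after PBS, and 10.11 in forebrain after ethanol, against 10.13 after PBS. Its arrays separated by tissue, with both hippocampus arrays far below both forebrain arrays, and ethanol minus PBS was 0.13 in hippocampus and -0.02 in forebrain. The limma value for ethanol was 0.05 (SE 0.071, adjusted p = 0.798).

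The secreted proteins held the largest difference of the set. Apoe, the lipid-carrying apolipoprotein that astrocytes supply to neurons, read 10.55 in hippocampus after ethanol, against 10.00 after PBS, and 10.43 in forebrain after ethanol, against 10.31 after PBS. This is the same order of arrays as for Aqp4, with the PBS hippocampus array low and the other 3 within 0.24. Its difference in hippocampus was 0.55, or 1.47-fold, the 70th highest of all kept genes, and that in forebrain 0.12. Over both tissues limma gave 0.34 (SE 0.098, adjusted p = 0.51).

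Sparcl1, also called hevin, is a matrix protein released by astrocytes that promotes excitatory synapses. It read 11.18 in hippocampus after ethanol, against 10.83 after PBS, and 11.19 in forebrain after ethanol, against 11.08 after PBS. The 3 arrays other than PBS hippocampus lay within 0.11. The differences were 0.35 in hippocampus and 0.11 in forebrain (limma 0.23, SE 0.0656, adjusted p = 0.51).

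Agt encodes angiotensinogen, the precursor of the angiotensin peptides, made in brain mainly by astrocytes. It read 6.97 in hippocampus after ethanol, against 6.67 after PBS, and 7.29 in forebrain after ethanol, against 6.93 after PBS. Unlike the genes above, its difference was of one size in the tissues, 0.30 in hippocampus and 0.36 in forebrain, and only the forebrain ethanol array passed the filter value. In a fit without the filter limma gave 0.33 (SE 0.0917, adjusted p = 0.618).

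Of the enzymes, Aldh1l1, which converts formyl-tetrahydrofolate and is widely used as a pan-astrocyte marker, read 8.79 in hippocampus after ethanol, against 8.43 after PBS, and 8.75 in forebrain after ethanol, against 8.58 after PBS. The PBS hippocampus array was again lowest. The differences were 0.36 in hippocampus and 0.18 in forebrain, and the forebrain value ranked 298th of all kept genes in forebrain (limma 0.27, SE 0.0831, adjusted p = 0.51). Aldoc, the brain form of the glycolytic enzyme aldolase, went the other way in hippocampus. It read 10.64 after ethanol, against 10.79 after PBS in hippocampus, and 10.64 after ethanol, against 10.56 after PBS in forebrain. It was the single kept marker lower after ethanol in hippocampus, by -0.15, while the forebrain difference was 0.09 (limma -0.03, SE 0.0685, adjusted p = 0.875).

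Of the cytoplasmic proteins, Gfap, the intermediate filament of mature astrocytes, read 7.17 in hippocampus after ethanol, against 7.05 after PBS, and 7.20 in forebrain after ethanol, against 7.06 after PBS. Here the arrays paired by treatment and not by tissue, with differences of 0.12 and 0.14, but both PBS readings lay under the filter value (limma 0.13, SE 0.0843, adjusted p = 0.592). S100b, a calcium-binding protein, read 6.21 in hippocampus after ethanol, against 6.05 after PBS, and 6.00 in forebrain after ethanol, against 6.06 after PBS. All 4 of its readings were below the filter value and their order followed neither tissue nor treatment.

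When ethanol was tested across the tissues by limma, 0 of the 7 kept markers passed the adjusted threshold of 0.05, as did 0.0% of the 11013 kept genes. Before adjustment, 4 of the 7 kept markers (Sparcl1, Apoe, Aldh1l1 and Aqp4) were higher after ethanol at 0.05, against 3.41% of all kept genes, and 0 were lower, against 6.36%. Agt passed the unadjusted threshold as well in the fit without a filter. Because the markers were chosen with earlier results of these data known, these shares describe the set and do not test it. The fit has 1 residual degree of freedom, in which the difference between the tissues' ethanol effects serves as error. That difference, hippocampus minus forebrain, was 0.44 for Apoe, 0.34 for Aqp4, 0.24 for Sparcl1 and 0.18 for Aldh1l1, against -0.02 for Gfap and -0.05 for Agt. Over all kept genes its standard deviation was 0.18, and it cannot be tested with 1 array a group. The SEs follow it only in part, because moderation draws each gene's variance toward that of other kept genes. They were 0.098 for Apoe and 0.0843 for Gfap, so the unadjusted p-values rest largely on variance borrowed from other genes.

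**Figure D2:**
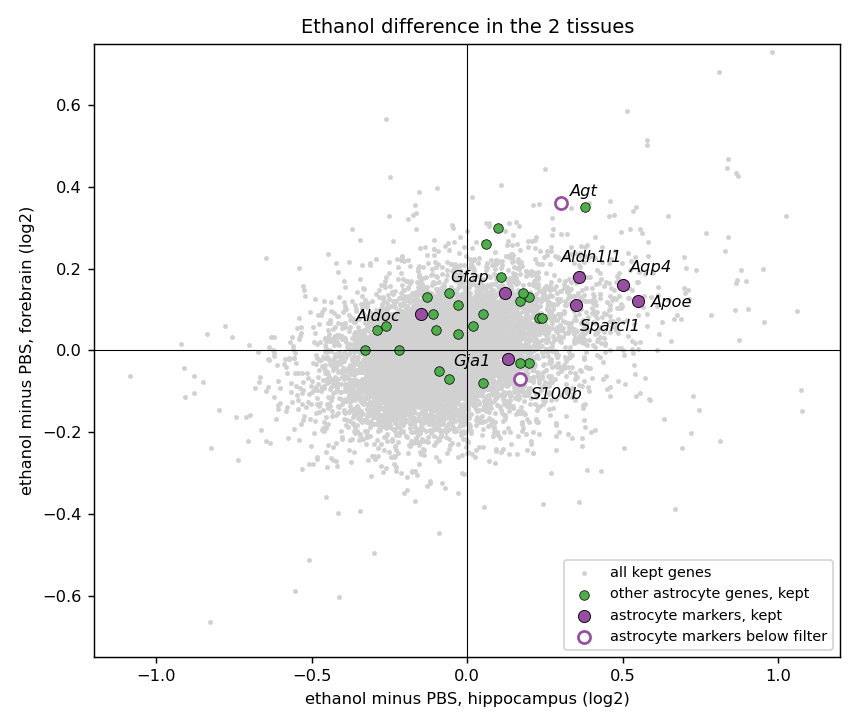
Ethanol minus PBS on the log2 scale in hippocampus (horizontal) and forebrain (vertical), 1 array a group, for all kept genes (grey; 4 lie outside the axes), 26 other astrocyte genes (green) and the 9 markers (purple; open where below the filter). Apoe at 0.55 and Aqp4 at 0.50 lie farthest to the right among the markers, and Aldoc lies left of 0.

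The hippocampus PBS array held the lowest reading of 6 of the 7 kept markers, where 19.9% of all kept genes had their lowest reading. This pattern was looked for after the values had been seen. Among the 6, Gfap read 7.05 there against 7.06 in forebrain after PBS. Gja1 was low on both hippocampus arrays, at 9.26 after ethanol and 9.13 after PBS. For Apoe, Aqp4, Sparcl1 and Aldh1l1 the ethanol hippocampus array stood within 0.12 of the ethanol forebrain array, at 0.12, 0.05, -0.01 and 0.03 (hippocampus minus forebrain), whereas after PBS hippocampus stood at -0.31, -0.29, -0.25 and -0.14. A low PBS hippocampus array and a high ethanol hippocampus array cannot be told apart with 1 array a group. The forebrain differences, which do not use the PBS hippocampus array, were 0.09 to 0.18 for 6 of the 7 kept markers and -0.02 for Gja1. Over all kept genes the forebrain difference had a standard deviation of 0.09.

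Other genes of astrocytes were examined as a list of 32, of which 26 were kept. In hippocampus 14 read above PBS and 12 below, with a median of 0.03, beside 30.7% above PBS and a median of -0.08 for all kept genes. In forebrain 20 of 26 read above PBS, with a median of 0.08, beside 46.1% and -0.01. By limma 0 were called at the adjusted threshold. At an unadjusted p of 0.05, 5 of the 26 were higher and 0 lower, beside 3.41% and 6.36% of all kept genes. Pla2g7, the lipase of platelet-activating factor, read 8.33 in hippocampus after ethanol, against 7.96 after PBS, and 8.55 in forebrain after ethanol, against 8.21 after PBS. Its differences of 0.38 and 0.35 were close to equal in the tissues, and both ethanol arrays were above both PBS arrays. On the other side were the growth factor receptor gene Fgfr3 at -0.33 and the metallothionein genes Mt1 at -0.29 and Mt2 at -0.26 in hippocampus, each between 0.00 and 0.06 in forebrain.

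Genes tied to single markers were set against the 30.7% of all kept genes above PBS in hippocampus and the 46.1% in forebrain. Partners of Apoe in lipid transport read lower for 7 of 8 kept genes in each tissue (medians -0.12 in hippocampus and -0.06 in forebrain), among them in hippocampus the sorting receptor gene Sorl1 at -0.35, the sterol transporter gene Abcg1 at -0.22 and the receptor gene Lrp8 at -0.21. The exception in hippocampus was Apod, another apolipoprotein, at 0.75, with -0.15 in forebrain. The complex that anchors Aqp4 in end-feet had 3 of 7 kept genes above PBS in hippocampus and 2 in forebrain (medians -0.01 and -0.06), with dystroglycan (Dag1) at -0.22, the laminin gene Lama2 at -0.22, dystrophin (Dmd) at 0.16 and agrin (Agrn) at -0.13 in hippocampus. Of the renin-angiotensin partners of Agt 2 were kept, Atp6ap2 at -0.13 in hippocampus and 0.14 in forebrain and Ace at -0.03 and 0.07, so that both read in the direction of Agt in forebrain and not in hippocampus. The paralogues of the markers had 3 of 8 kept genes above PBS in hippocampus (median -0.14), such as Aldoa at 0.29, where Aldoc was lower, and Aldh1l2 at -0.43, where Aldh1l1 was higher. Aqp1, the water channel of choroid plexus, read -0.42 and the connexin gene Gjc1 -0.32. In none of these lists did limma call a gene for ethanol at the adjusted threshold, nor did it in any list below.

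Regulators upstream of astrocytes were mostly below PBS in hippocampus after ethanol, as were most kept genes (30.7% of all kept genes lay above PBS). Among gliogenic transcription factors 4 of 14 kept genes were above PBS and 10 below (median -0.04), with Nfia at -0.70, Lhx2 at -0.67, Nfix at -0.57 and Rorb at -0.33. Nfia and Nfix encode nuclear factor I proteins that turn on astrocyte genes, and Lhx2, which delays gliogenesis in hippocampal progenitors, is also a factor of cortical neurons. In forebrain the same 4 genes stood between -0.16 and -0.02. Genes of the JAK-STAT, BMP and Notch pathways, which prompt progenitors to become astrocytes, read below PBS for 13 of 17 kept genes in hippocampus (median -0.11), led by the BMP receptor gene Bmpr1b at -0.46 and the receptor genes Notch2 at -0.39 and Notch1 at -0.30. Radial glia and progenitor genes read below PBS for 10 of 16 (median -0.16), with the transcription factor gene Gli3 at -0.54, the filament gene Nes at -0.48 and Emx2 at -0.36, while the endothelin receptor gene Ednrb stood at 0.26. In forebrain the progenitor median was 0.04.

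**Figure D3:**
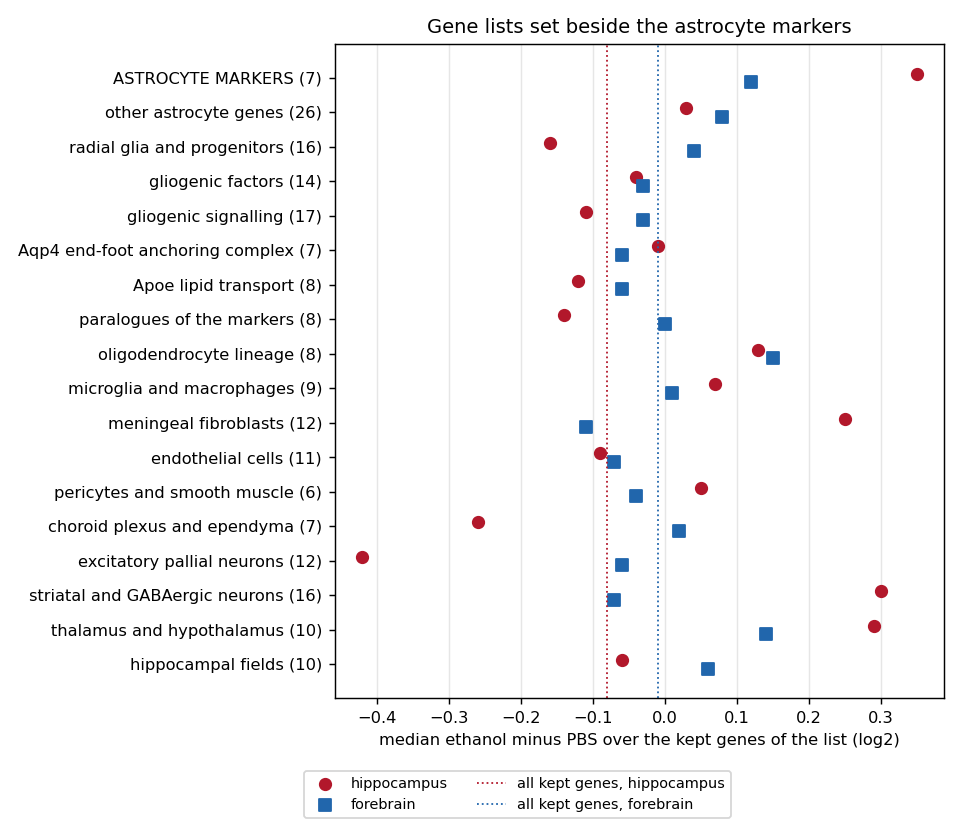
Median of ethanol minus PBS (log2) over the kept genes of each list in hippocampus (circles) and forebrain (squares), with the number of kept genes in brackets and lists of at least 6 kept genes shown. Dotted lines are the medians of all kept genes, -0.08 in hippocampus and -0.01 in forebrain, and the astrocyte markers stand at 0.35 and 0.12.

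Markers of other cells are given beside the same background, 30.7% of all kept genes above PBS in hippocampus and 46.1% in forebrain. Meningeal fibroblast markers read above PBS for 10 of 12 kept genes in hippocampus (median 0.25), led by the prostaglandin synthase gene Ptgds at 0.87 and the proteoglycan gene Dcn at 0.73, and for 1 of 12 in forebrain (median -0.11). Their summed linear signal was 4352 in hippocampus after ethanol, against 3666 after PBS, and 6373 in forebrain after ethanol, against 6893 after PBS. Thalamic and hypothalamic markers read above PBS for 8 of 10 kept genes in hippocampus (median 0.29) and for 10 of 10 in forebrain (median 0.14), led in hippocampus by Calb2 at 0.87 and by Tcf7l2 and Ntng1 at 0.84 each. Their summed signal was 3726 after ethanol, against 2836 after PBS in hippocampus, and 4437 after ethanol, against 3829 after PBS in forebrain. On the hippocampus PBS array 19.9% of all kept genes had their lowest reading. Like the astrocyte markers, 10 of the 12 meningeal and 8 of the 10 thalamic genes had theirs there. The part of these cells in the astrocyte marker differences was not tested.

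Against that background, striatal and GABAergic neuron genes read above PBS for 14 of 16 in hippocampus (median 0.30), such as Rarb at 0.72, and for 4 of 16 in forebrain (median -0.07). Excitatory neuron genes read above PBS for 1 of 12 in hippocampus (median -0.42), with Sox5 at -0.85, and for 2 of 12 in forebrain (median -0.06). Oligodendrocyte lineage genes read above PBS for 5 of 8 in hippocampus (median 0.13) and 7 of 8 in forebrain (median 0.15), such as Cnp at 0.26 and 0.23. Microglia and macrophage genes, another source of Apoe, read above PBS for 7 of 9 in hippocampus (median 0.07) and 6 of 9 in forebrain (median 0.01), with a summed signal of 1590 in hippocampus after ethanol, against 1536 after PBS, and 2009 in forebrain after ethanol, against 2073 after PBS. Median differences in hippocampus and forebrain were -0.09 and -0.07 for 11 endothelial genes, 0.05 and -0.04 for 6 pericyte and smooth muscle genes, and -0.26 and 0.02 for 7 choroid plexus and ependymal genes. The erythroid list kept Alas2 alone, at -0.04 and -0.19. Y-linked genes such as Eif2s3y differed by -0.33 in hippocampus and 0.89 in forebrain, and Xist by 0.05 and -0.38. Hippocampus minus forebrain, Eif2s3y differed by -0.37 after ethanol and 0.85 after PBS, and Xist by 0.28 and -0.16. Whether the arrays hold embryos of like sex was not tested. The part of these in the marker differences was not tested either.

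Between the tissues, over both treatments, Gja1 was the single astrocyte marker that differed past the threshold. It was lower in hippocampus by -0.93 in limma (SE 0.071, adjusted p = 0.0175), which makes its level 0.527 times that of forebrain, with -0.85 after ethanol and -0.999 after PBS. Of all kept genes 1.02% were called lower in hippocampus and 0.109% higher. The limma tissue values of the other 6 kept markers ran from -0.13 for Sparcl1 to 0.12 for Aldoc, with adjusted p from 0.423 to 0.962. Of other connexin genes of astrocytes and meninges, Gjb2 passed the same test and Gjb6 did not. Gjb2 read 6.57 in hippocampus after ethanol and 6.68 after PBS, against 7.75 in forebrain after ethanol and 7.69 after PBS (limma -1.10, adjusted p = 0.0175). Both its hippocampus readings lay under the filter value, so Gjb2 was kept through forebrain, where it was higher. In the limma fit without a filter its adjusted p was 0.0313. Gjb6, which encodes another astrocyte connexin and lay below the filter, read 6.59 and 6.09 in hippocampus after ethanol and PBS, against 7.22 and 7.13 in forebrain after ethanol and PBS (limma without a filter -0.84, adjusted p = 0.0646). Of the other astrocyte genes 1 of 26 was called, the sodium pump subunit gene Atp1b2, lower in hippocampus by limma's -0.44 (adjusted p = 0.0472, which became 0.0757 without a filter and 0.0913 without a trend).

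Meningeal and border macrophage genes were also lower in hippocampus, where 1.02% of all kept genes were called lower. Limma called 8 of 12 meningeal genes, among them Aldh1a2 at -0.99 and Slc6a13 at -1.08 (adjusted p of 0.0175 and 0.0348). It called 4 of 9 microglia and macrophage genes, among them Mrc1 at -0.95 and F13a1 at -0.93 (adjusted p of 0.0208 and 0.019). Some called genes, such as Foxc1 and Lyve1, read under the filter value on both hippocampus arrays and were kept through forebrain. Without a filter limma called 4 of 14 meningeal and 2 of 15 macrophage genes, and without a trend 3 of 12 and 2 of 9, Slc6a13 being lost in both (adjusted p of 0.0624 and 0.0663). Their part in the low Gja1 and Gjb2 readings was not tested. Markers of hippocampal fields bear on the tissue label: limma called 0 of 10 kept genes between the tissues, among them Zbtb20 at 0.29 (adjusted p = 0.0768). It called 1 of 10 after quantile normalization and 1 of 10 with all probe sets of a gene averaged. With the 75th percentile filter it called 1 of 3. Of 16 striatal and GABAergic neuron genes, limma called 2 higher in hippocampus, Ebf1 at 0.85 and Foxp1 at 0.55, and 0 lower. Of all kept genes it called 0.109% higher. The make-up of the dissected tissues was not tested.

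**Figure D4:**
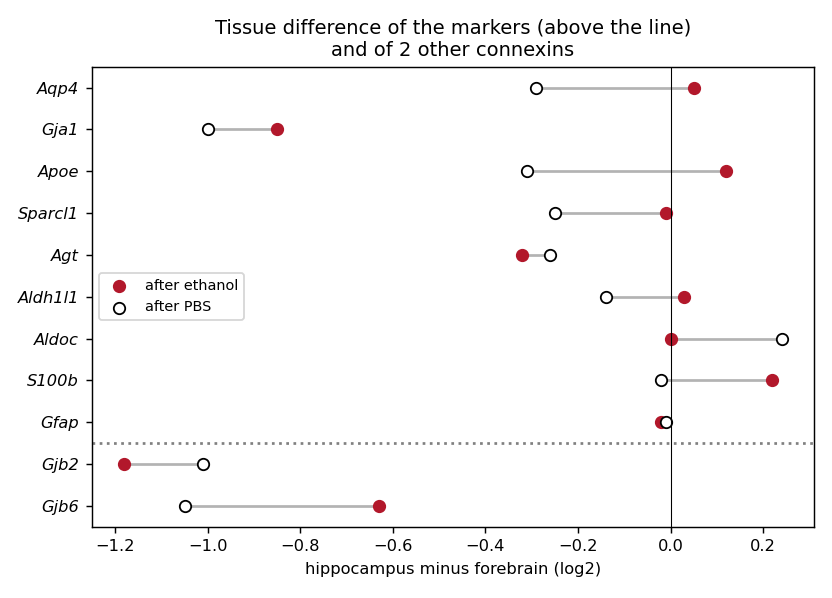
Hippocampus minus forebrain on the log2 scale for the 9 astrocyte markers and, under the dotted line, for Gjb2 and Gjb6, after ethanol (filled) and after PBS (open), 1 array a group. Gja1 lies at -0.85 and -0.999, and Apoe, Aqp4, Sparcl1 and Aldh1l1 are nearer to 0 after ethanol than after PBS.

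The kept genes whose pattern over the 4 arrays was most like the mean pattern of the 7 kept markers were Cobl, Vstm2a, Tpd52l1, Slc25a12 and Ahi1, at Euclidean distances of 0.0169 to 0.0357 between centred log2 profiles, out of 10666 candidates with a median distance of 0.324. Vstm2a, for example, read 9.95 in hippocampus after ethanol, against 9.66 after PBS, and 10.04 in forebrain after ethanol, against 9.92 after PBS. The markers themselves lay farther from their own mean, at 0.0776 to 0.764, so the mean pattern lay nearer to these 5 genes than to any marker. That mean includes Gja1, whose limma tissue value was -0.93, against -0.13 to 0.12 for the other kept markers. The mean pattern without Gja1 was not examined.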

How the data were processed

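RNA of 4 samples was measured on Affymetrix mouse gene arrays. Trizol extracts of total RNA, 6 ug each, gave the biotinylated cRNA, per the labels' protocols. The authors deposited log2 values, a scale inferred from their range of 1.582 to 13.96, since as natural logs the top values would lie beyond the 65535 of a 16-bit scanner. The submitters' processing notes name MAS5, with neither version nor normalization stated there. Array medians were 7.11 to 7.13 over 35557 probe sets and 8.57 to 8.68 over kept genes, lowest for hippocampus after ethanol. The number of arrays limits the precision.

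The platform's annotation gave the gene names, with 21789 carrying 1 symbol, 1621 several and 12147 none. Of the named ones 21698 matched a RefSeq table of GRCm38.p6 by gene identifier, and all 9 markers did. Each gene was read from its probe set with the highest mean and kept where that mean reached the filter value. Differences within a tissue are of 2 arrays and untested. Over all 4 arrays limma 3.58.1 in R 4.3.3 modelled tissue plus treatment, with trended eBayes moderation and a Benjamini-Hochberg threshold of 0.05. The p-values reflect only how these 4 arrays vary, with variance borrowed across genes. The script was tested on simulated data.

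The markers and all lists were chosen with earlier results of these data known. All 9 markers are named, and of other lists the text draws on up to 4 kept genes with the largest hippocampus difference and on genes called by limma. Zbtb20 and Gjb6 fall outside this rule and were named after their values were seen. The 5 most alike genes had the smallest distance to the mean marker profile. Alternatives were array centring, quantile normalization, all probe sets of a gene averaged, other filters, other folds and eBayes without a trend. Tables and plots were made in Python 3.11.15 (numpy 2.4.6, pandas 2.3.3, matplotlib 3.10.9).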

Additional observations from a re-analysis of the deposited data

Results flagged for a closer look

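Gja1, Aldoc and S100b were picked out because their ethanol differences had opposite signs in the tissues, which was not tested. The ethanol effect in hippocampus minus that in forebrain was 0.15 on the log2 scale for Gja1 (0.13 and -0.02), -0.24 for Aldoc (-0.15 and 0.09) and 0.23 for S100b (0.17 and -0.07), whose readings all lie below the filter. Over all kept genes this quantity had a standard deviation of 0.18. No group had the 4 arrays needed to look for an outlying sample.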

How the results depend on the processing

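The number of kept markers above PBS, 6 of 7 in each tissue, was also 6 with arrays centred on their medians, after quantile normalization, with all probe sets averaged and, chosen after seeing the data, with arrays centred on their kept genes, which raises the hippocampus differences by 0.10. The median difference of the markers moved by less than 0.0831, their median residual SD, under the first 3 of these. Centring on kept genes adds its 0.10 to the hippocampus median. The margin of 0.0831 is large beside the forebrain median of 0.12, and Sparcl1 in forebrain fell from 0.11 to 0.02 after quantile normalization. Limma called 0 markers for ethanol in the main setting and the 6 alternatives, with adjusted p for single markers of 0.218 to 0.909 and 0 turned signs, though the 75th percentile filter drops Aqp4 and Gfap. Gja1 was called between tissues in all 7 settings. Over all genes, limma called 14 for ethanol after quantile normalization and 7 with the 75th percentile filter, against 0 in the main setting. For tissue it called 190 with centred arrays, 416 after quantile normalization, 37 without a filter and 27 without a trend, against 124. Genes 1.5-fold higher and lower in hippocampus numbered 54 and 47, against 131 and 77 without a filter and 6 and 1 at 2-fold. In forebrain they numbered 5 and 3, against 24 and 22 without a filter and 0 and 0 at 2-fold. No paired analysis was possible because each group has 1 array and the labels give no replicate numbers. Readings near or under the filter value limit Aqp4, Gfap, Agt and S100b.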
